A study of Mus musculus with 24 samples.

Results

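Mammary gland tissue of 24 mice was examined for 10 genes that mark T lymphocytes: Cd3d, Cd3e, Cd3g, Cd4, Cd8a, Cd8b1, Lck, Cd2, Cd5 and Foxp3. They were taken as every array probe whose gene name was one of these 10 symbols, which gave 13 probes for 10 of the 34797 gene names on the array. The study asked how a low dose of ionizing radiation (LDIR) changes transcripts of the mammary gland in a pair of mouse strains. Female BALB/c mice, a common inbred laboratory strain, and female SPRET/EiJ mice, inbred from another mouse species, Mus spretus, were exposed once over the whole body to 10 cGy of X-rays or sham-exposed at 8 to 9 weeks of age. BALB/c tissue was collected 2, 4 and 8 weeks later and SPRET/EiJ tissue 4 weeks later, with 3 LDIR and 3 sham mice in each of these settings, so that there were 8 groups of 3. The labels name no other difference between LDIR and sham mice, and no transgene.

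T lymphocytes recognise peptide antigens through a receptor that signals through the CD3 chains, and the coreceptors CD4 and CD8 divide them into helper and cytotoxic cells. FOXP3 marks the regulatory cells. In a normal mammary gland these cells lie scattered among epithelium and fat, while the inguinal mammary fat pad also holds a lymph node in which T and B lymphocytes are packed in separate zones. Since whole tissue was measured, more cells of a type and more RNA per cell cannot be told apart.

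The probes are 60 bases long, and 4 of them lie within coding sequence. Their sequences are shown because levels below rest on them, in the sense of the transcript and with the mm9 position given by the files. No base is singled out in them by capitals. The Cd3d probe crosses an exon junction within chr9:44794171-44794402 on the plus strand. The second Cd4 probe lies at chr6:124817706-124817765 on the minus strand, the brighter Cd8a probe at chr6:71323885-71323944 on the plus strand and the second Cd2 probe, across a junction, at chr3:101083802-101086981 on the minus strand.
Cd3d: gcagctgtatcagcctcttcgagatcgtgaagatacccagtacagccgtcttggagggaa
Cd4, second probe: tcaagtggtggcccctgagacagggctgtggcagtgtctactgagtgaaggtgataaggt
Cd8a, brighter probe: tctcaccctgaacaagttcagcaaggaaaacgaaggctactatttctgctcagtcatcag
Cd2, second probe: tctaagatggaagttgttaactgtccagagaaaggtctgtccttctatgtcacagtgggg

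The genes of the 3 CD3 chains lie next to each other on chromosome 9. The 250 bases before each of their start sites are given here in the direction of the gene. They are from RefSeq on GRCm38.p6, another build than that of the array files. Whether the 3 genes share regulation was not tested. The positions are chr9:44981536-44981785 for Cd3d on the plus strand, chr9:45009612-45009861 for Cd3e on the minus strand and chr9:44980432-44980681 for Cd3g on the minus strand. Capitals mark a match to the core of the sites bound by ETS factors (GGAAGT, read here as ACTTCC from the other strand) or by GATA factors (GATAA).
Cd3d promoter: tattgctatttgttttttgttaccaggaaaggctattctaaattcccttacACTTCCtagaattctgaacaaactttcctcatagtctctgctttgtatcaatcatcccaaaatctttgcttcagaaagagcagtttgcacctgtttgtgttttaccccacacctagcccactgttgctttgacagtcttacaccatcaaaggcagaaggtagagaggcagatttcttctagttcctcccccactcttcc
Cd3e promoter: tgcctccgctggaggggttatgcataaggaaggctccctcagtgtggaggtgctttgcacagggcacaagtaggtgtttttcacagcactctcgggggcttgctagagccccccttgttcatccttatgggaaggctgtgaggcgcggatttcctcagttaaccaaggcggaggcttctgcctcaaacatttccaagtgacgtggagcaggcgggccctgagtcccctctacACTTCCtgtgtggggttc
Cd3g promoter: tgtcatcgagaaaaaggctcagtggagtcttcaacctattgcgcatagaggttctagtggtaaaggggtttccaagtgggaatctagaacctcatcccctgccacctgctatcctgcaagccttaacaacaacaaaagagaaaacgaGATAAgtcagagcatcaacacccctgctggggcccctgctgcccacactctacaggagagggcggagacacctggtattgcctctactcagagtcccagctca

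In all, 5 motifs were searched on both strands in these windows, each counted on its own so that overlapping matches count for each. Promoters were found for 7 of the 10 genes, with 2 start sites each for Lck and Foxp3. GGAAGT stood in a promoter of 4 of the 7 genes (Cd3d, Cd3e, Lck and Cd5) and in 19.74% of 32841 promoters of the same length. GATAA stood in a promoter of 3 (Cd3g, Cd8a and Foxp3) and in 22.58% of all promoters. The letters TATAAA, the TATA box, stood in 1 of the 7 genes (Foxp3) and in 12.37% of all promoters. The RUNX core TGTGGT stood in 1 (Lck) and in 14.05% of all. The E box CAGCTG stood in 1 (Foxp3) and in 13% of all. These matches are descriptions of letters in a window.

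Levels below are log2 intensities on a scale where each array's 75th percentile is 0, and the brightest probe stands for a gene that has more than 1. By the scanner software's own test, an array had from 57.2% to 72.7% of its probes well above background. Of the 13 T lymphocyte probes, 10 passed this test on each of the 24 arrays. The Cd3g probe passed on 21 arrays. The 3 on which it did not were all of SPRET/EiJ mice (2 of the 3 sham and 1 of the 3 LDIR), and whether the probe sequences match SPRET/EiJ transcripts was not tested. The brighter Cd8a probe passed on 22 arrays and its second probe on 21. Each slide held 8 arrays: slide 1 the 2-week arrays and 4-week sham A and B, slide 2 the other 4-week BALB/c arrays with 8-week sham A to C and 8-week LDIR A, and slide 3 the remaining 8-week LDIR arrays and every SPRET/EiJ array.

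Among the arrays, 3 stood apart from the rest, and the fits without them were added after the data were seen. On BALB/c 8-week sham A, BALB/c 8-week LDIR B and SPRET/EiJ LDIR A, the mean of 9 B lymphocyte genes, none of them a member of the T lymphocyte set, lay 4.82, 4.98 and 4.22 log2 units above the median of the strain. The next highest array, SPRET/EiJ LDIR C, lay 0.61 above it. All 10 T lymphocyte genes were at their highest in the strain on each of these 3 arrays. The median of the 10 lay 5.08, 5.68 and 6.0 above the median of the strain's other arrays, whereas the same median over 29337 probes above background on every array was -0.04, -0.21 and -0.20. Of those probes 5173, 5093 and 8261 were also highest there. As the choice of arrays came from lymphocyte genes, these are descriptions, and each comparison that rests on the 3 arrays is given with and without them.

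**Figure D1:**
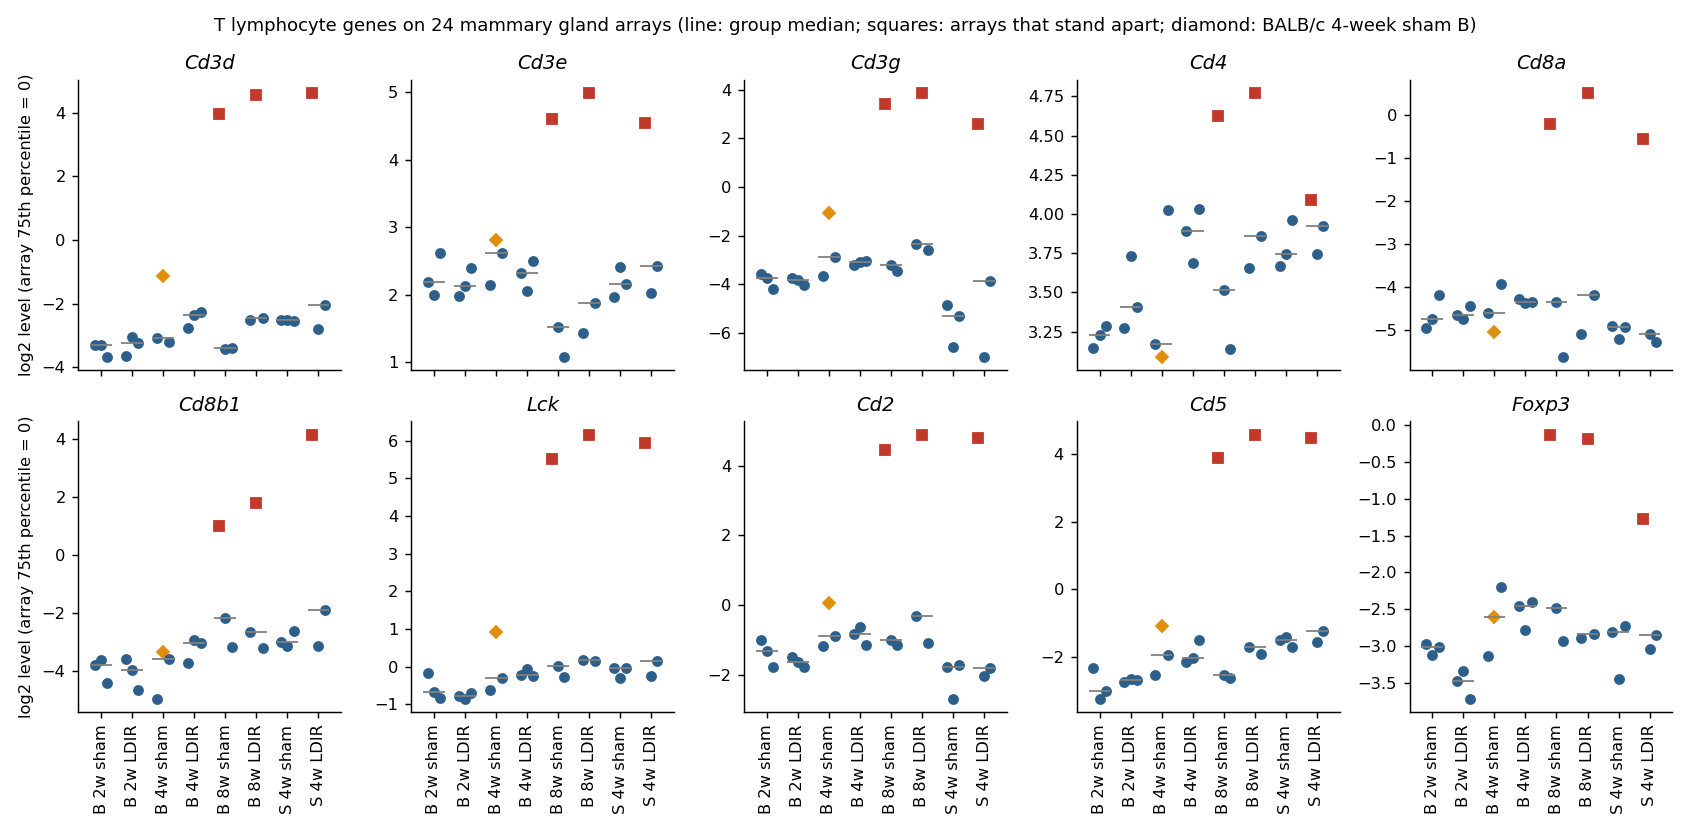
Log2 level (array 75th percentile = 0) of each T lymphocyte gene on each of the 24 arrays, by group; B is BALB/c, S is SPRET/EiJ, w is weeks, points are single mice and lines are group medians. The squares are the 3 arrays that stand apart, which are highest of their strain in every panel, and the diamond is BALB/c 4-week sham B.

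The delta and gamma chains of CD3 gave some of the widest distances. CD3 delta, encoded by Cd3d, is a subunit of the T cell receptor complex. Cd3d was at 3.97, -3.44 and -3.40 on the 8-week sham arrays A, B and C, at -2.52, 4.56 and -2.46 on the 8-week LDIR arrays, and at 4.63, -2.80 and -2.04 on the SPRET/EiJ LDIR arrays. Those 3 high values are 34.5-fold, 52.0-fold and 102-fold above the highest other array of the strain. On the other arrays Cd3d was at -3.32, -3.30 and -3.68 in 2-week sham, -3.65, -3.07 and -3.26 in 2-week LDIR, -3.09, -1.14 and -3.21 in 4-week sham, -2.77, -2.37 and -2.27 in 4-week LDIR, and -2.53, -2.52 and -2.54 in SPRET/EiJ sham mice. The single raised value among these is 4-week sham B, and without it the 3 4-week LDIR values lie above both remaining sham values. Since sham B is set aside here for its own Cd3d value, that separation is a description only. With it the 4-week means were -2.48 in sham and -2.47 in LDIR mice.

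Cd3g encodes CD3 gamma, a further chain of the same complex. It was at 3.40, -3.20 and -3.45 in 8-week sham, -2.35, 3.87 and -2.59 in 8-week LDIR and 2.60, -7.0 and -3.86 in SPRET/EiJ LDIR mice. In the other BALB/c groups it was at -3.56, -3.74 and -4.20 (2-week sham), -3.75, -3.83 and -4.03 (2-week LDIR), -3.67, -1.06 and -2.87 (4-week sham) and -3.21, -3.09 and -3.05 (4-week LDIR). The SPRET/EiJ sham arrays gave -4.86, -6.60 and -5.33, below every BALB/c array, with the last 2 of them not well above background. Cd3e, for CD3 epsilon, was at 4.61, 4.99 and 4.54 on the 3 arrays that stand apart and between 1.08 and 2.82 on the other 21. Its distance from the median of the strain's other arrays was 2.48, 2.86 and 2.39, against 7.12, 7.71 and 7.16 for Cd3d.

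Of the coreceptors, the helper cell gene Cd4 moved least. Its brighter probe was at 4.63, 4.77 and 4.09 on the 3 arrays, 1.5-fold, 1.7-fold and 1.1-fold above the highest other array of the strain. The second Cd4 probe, shown above, was at -1.13, -0.92 and -1.56, which is 2.33, 2.54 and 1.20 above the median of the others on the log2 scale, so the probes of this gene differ in how far they moved. Cd8a, the alpha chain of CD8, was at -0.20, 0.52 and -0.56, or 4.32, 5.04 and 4.55 above the others, and its second probe lay 6.22, 6.87 and 6.12 above them. Cd8b1, the beta chain, was at 1.02, -2.15 and -3.17 in 8-week sham, -2.64, 1.80 and -3.20 in 8-week LDIR and 4.16, -3.13 and -1.87 in SPRET/EiJ LDIR mice. Here the SPRET/EiJ array was the highest of all 24, 7.14 log2 units above its strain's others, against 4.59 and 5.36 for the 2 BALB/c arrays.

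Lck, the kinase that phosphorylates the CD3 chains, was at 5.51, 0.02 and -0.27 in 8-week sham, 0.18, 6.16 and 0.16 in 8-week LDIR and 5.95, -0.24 and 0.16 in SPRET/EiJ LDIR mice. On the other 21 arrays it stayed between -0.85 and 0.92, with 4-week sham B at the top. Cd2, an adhesion receptor of T and NK cells, was at 4.45, 4.89 and 4.78 on the 3 arrays, which is 20.8-fold, 28.1-fold and 89.3-fold above the highest other array of the strain. Cd5, which dampens receptor signals, was at 3.88, 4.59 and 4.49, or 31.1-fold, 50.7-fold and 53.3-fold above it. Foxp3, the transcription factor of regulatory T cells, was at -0.13, -0.18 and -1.27, only 4.2-fold, 4.1-fold and 2.7-fold above it.

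**Figure D2:**
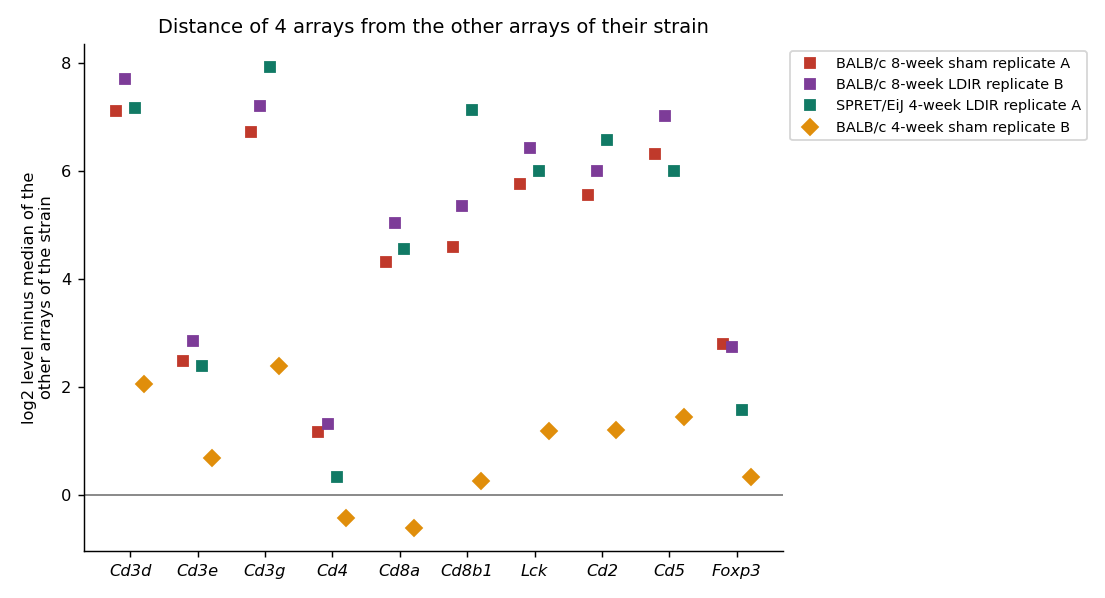
Log2 level of each T lymphocyte gene on 4 arrays minus the median of the other arrays of the same strain. Cd3d, Cd3g, Lck, Cd2 and Cd5 lie more than 5 units up on the 3 arrays that stand apart. Cd3e, Cd4 and Foxp3 lie less than 3 units up on them, and BALB/c 4-week sham B lies above 0 for 8 of the 10 genes.

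Other lymphocyte genes were high on the same arrays. Of 24 further genes of T cell receptor signalling, 24, 24 and 23 were above every other array of the strain on 8-week sham A, 8-week LDIR B and SPRET/EiJ LDIR A. Zap70, the kinase recruited to CD3, was at 3.76, 4.14 and 4.06 there, and at a median of -2.10 and -2.48 on the other BALB/c and SPRET/EiJ arrays. Of 16 genes of T cell transcription and homing 14 were highest on each of the 3 arrays, including Ccr7, the chemokine receptor that guides lymphocytes into lymph nodes, at 4.73, 5.45 and 4.96. Gata3, which mammary epithelium expresses as well, was among those that were not, at 2.52, 3.18 and 2.38 against a median of 3.76 in BALB/c and 2.68 in SPRET/EiJ.

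Markers of other cells moved too. Of the 9 B lymphocyte genes, by whose mean these arrays were chosen, 9, 9 and 8 were highest there. Of 6 genes of lymph node stroma and vessels, 6, 5 and 4 were highest. Cxcl13, the chemokine of B cell follicles, was at 5.15, 5.41 and 1.75. Glycam1, a ligand of L-selectin on lymph node vessels and also a milk protein gene, was at 7.43 and 7.51 on the BALB/c pair but at -6.29 on the SPRET/EiJ array, where the median of the others was -6.63. Of 5 adipocyte genes, 5 were lower on each of these arrays than on every other array of the strain, with Adipoq at 6.62, 6.65 and 6.32 against 8.12 and 7.79. Of the 29337 probes 6339, 8425 and 13151 were lowest there too. None of the 5 epithelial genes was at its highest there. Of the 4 thymocyte genes, 3, 1 and 3 were highest there. Rag1 and Rag2 were well above background on 0 of the 24 arrays, Ptcra on 2 and Dntt on 24.

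As linear values in which the array's 75th percentile is 1, the 10 T lymphocyte genes summed to 12.8 to 161 in 8-week sham, 18.3 to 228 in 8-week LDIR and 19.3 to 202 in SPRET/EiJ LDIR mice. In the other groups the sum ran from 14.9 to 24.7. The 9 B lymphocyte genes summed to 5.75 to 105, 6.24 to 132 and 26.6 to 122 in the same 3 groups. They summed to 5.30 to 8.21 in the other BALB/c groups and to 23.2 to 30.3 in SPRET/EiJ sham mice. A sum can rest on a single bright gene. Between 4-week sham mice, BALB/c minus SPRET/EiJ, Cr2 differed by -5.63 log2 units, Cd79a by -1.31 and Cd79b by 1.49. The log2 median of the 9 genes went the other way from the sum. It was -3.50, -3.47 and -3.14 in SPRET/EiJ sham and -2.79, -2.94 and -2.36 in BALB/c 4-week sham mice. The 6 genes of lymph node stroma summed to 4.71 to 220, 2.20 to 236 and 4.84 to 14.8 in the first 3 groups and to 1.03 to 5.49 in the rest. The part that these cells have in the results below was not tested other than by leaving the 3 arrays out.

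**Figure D3:**
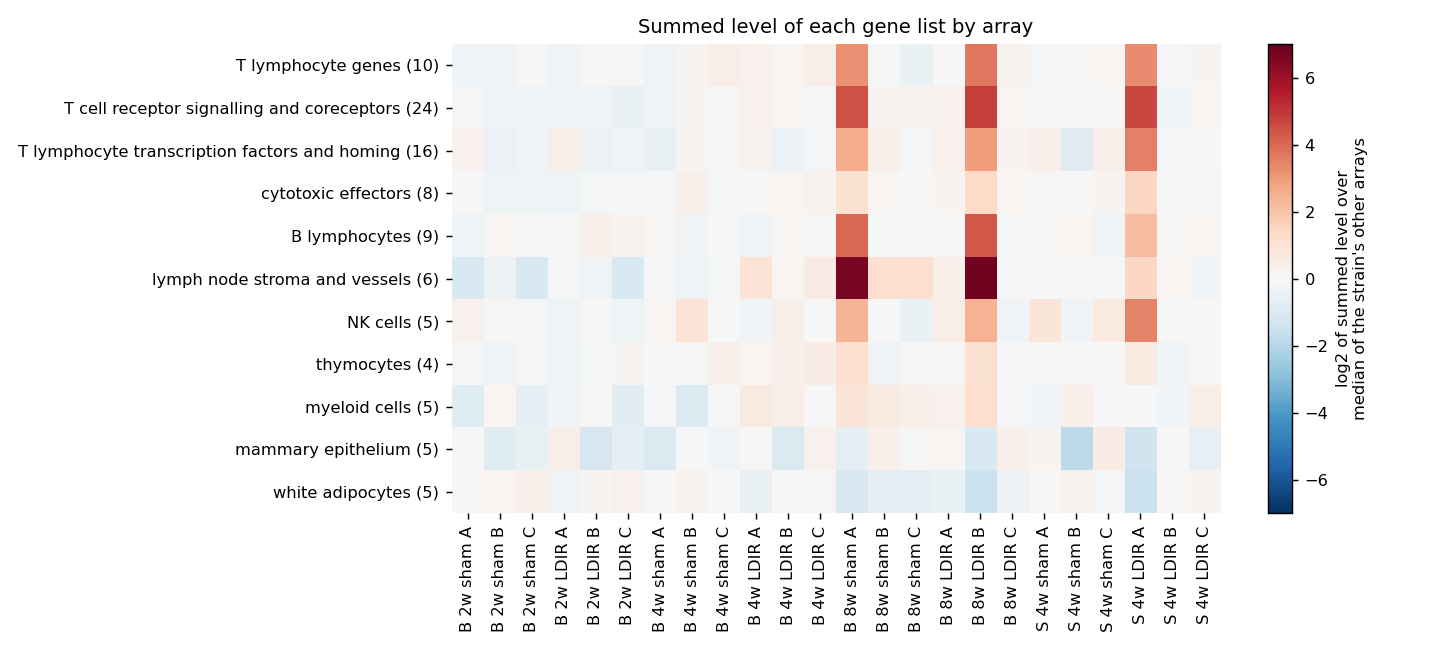
Summed linear level of each gene list on each array, as log2 over the median of the strain's other arrays; B is BALB/c, S is SPRET/EiJ, w is weeks and the number of genes is in brackets. The T and B lymphocyte rows are raised on 8-week sham A, 8-week LDIR B and SPRET/EiJ LDIR A, while the adipocyte row is lowered there.

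BALB/c 4-week sham B differed in another way. No rule set before the data picked this array out, and its B lymphocyte mean lay at -0.23 from the strain's median. The counts of T lymphocyte genes on it are therefore descriptions. Cd3g lay 2.39 log2 units above the median of the other BALB/c arrays, Cd3d 2.07, Cd5 1.45, Cd2 1.21, Lck 1.19 and Cd3e 0.69. These 6 genes were higher than on every BALB/c array other than the pair that stands apart. Foxp3 (0.33) and Cd8b1 (0.26) were not, and Cd4 (-0.43) and the brighter Cd8a probe (-0.60) lay below the median, while the second Cd8a probe lay 1.30 above it. No B lymphocyte gene of 9 and no lymph node stroma gene of 6 was highest on this array, and the median of the B genes lay at -0.19. Of 24 receptor signalling genes 9 were highest, and of 5 NK cell genes 3. Of the 29337 probes above background on every array, 4026 were also highest on it.

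The effect of LDIR was asked at each time by comparing LDIR with sham mice, calling a gene at an unadjusted p under 0.05 with a change over 1.5-fold, the thresholds of the study's methods. At 2 weeks, where both groups lay on 1 slide, limma called 0 of the 10 genes against 3.05% of all probes. The median change of the 10 was -0.07, against -0.02 over all probes. Foxp3 alone had an unadjusted p under 0.05, in limma and in the methods' t-test. It was at -2.98, -3.13 and -3.01 in sham and at -3.47, -3.34 and -3.72 in LDIR mice, so every LDIR value was below every sham value. The difference of -0.47 (SE 0.16) was under 1.5-fold, and its limma adjusted p was 0.869. The other 9 genes differed by -0.27 to 0.25. Of the 24 receptor signalling genes, Lcp2, the adaptor SLP-76, fell by 0.97 on the log2 scale (SE 0.26, limma adjusted p = 0.869) and was well above background on 1 of the 3 LDIR arrays.

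At 4 weeks limma called 0 of the 10 genes, against 4.83% of all probes, and 0 had an unadjusted p under 0.05 by limma or the t-test. The median change was -0.02, against 0.02 over all probes. Cd8b1 was at -4.94, -3.32 and -3.56 in sham and at -3.70, -2.91 and -3.02 in LDIR mice, a difference of 0.73 (SE 0.47) between groups that overlap. Cd4 was at 3.17, 3.09 and 4.03 in sham and at 3.89, 3.69 and 4.03 in LDIR mice, a difference of 0.44 (SE 0.29), and sham C lay level with the highest LDIR value. Without sham C the Cd4 difference was 0.74 (SE 0.19) and past the thresholds, with a limma adjusted p of 0.27. The remaining sham arrays then lay on slide 1 and the LDIR arrays on slide 2, so that group and slide cannot be told apart in this value. Cd3d differed by 0.01 (SE 0.56), and by 0.68 (SE 0.21, limma adjusted p = 0.94), past the thresholds, without sham B. Within slide 2, LDIR A to C against sham C alone, the 10 genes differed by -0.41 to 0.73, 5 of them above 0. Of the 24 receptor signalling genes Themis passed downward, but it was well above background on 1 of the 6 arrays and is given no fold. Of the 16 transcription and homing genes Tbx21, the T-bet gene of type 1 cells, fell by 0.71. Of the 8 cytotoxic genes Ifng fell by 1.15. Both had a limma adjusted p of 0.775.

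At 8 weeks the sham and the LDIR group each held 1 array that stands apart, and limma called 0 of the 10 genes, against 1.92% of all probes, with 0 at an unadjusted p under 0.05 by limma or the t-test. The standard errors ran from 0.50 for Cd4 to 2.79 for Cd3d. The median change was 0.40, against -0.14 over all probes. With those arrays left out, 2 LDIR against 2 sham arrays remained, the standard errors were 0.17 to 0.57, and 3 of the 10 genes passed the thresholds upward, against 2.26% of all probes. Cd3d was higher in LDIR by 0.93 (SE 0.17, limma adjusted p = 0.954), Cd3g by 0.86 (SE 0.21, adjusted p = 0.966) and Cd5 by 0.77 (SE 0.19, adjusted p = 0.961). Each LDIR value of these 3 genes lay above each sham value, as between -2.52 and -2.46 for Cd3d in LDIR mice and -3.44 and -3.40 in sham mice. With 2 against 2 arrays, and genes picked by the call in this same fit, that separation adds nothing to the call. Its share over all probes was not taken. In a fit of all 21 other arrays, which pools the spread over 8 groups, the standard errors were 0.48, 0.83 and 0.37 and none of the 3 passed, while 2.15% of all probes passed upward. Within slide 2 LDIR A lay 0.90, 0.97 and 0.87 above the mean of sham B and C, and -1.56, -1.27 and -1.29 from the mean when sham A was included.

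In SPRET/EiJ mice limma called 0 of the 10 genes, against 2.21% of all probes, and 0 had an unadjusted p under 0.05 by limma or the t-test, although all 10 were higher on average in LDIR mice. The median change was 2.09, against 0.03 over all probes, with standard errors of 0.24 to 2.18. The average rested on LDIR A. The Cd3g probe was well above background on 1 of the 3 sham arrays and on 2 of the 3 LDIR arrays, so its values here are those of a probe near the background. Without LDIR A, Cd3g went from 2.84 (SE 2.18) to 0.16 (SE 1.02), Cd8b1 from 2.61 (SE 1.72) to 0.39 (SE 0.42), Cd3d from 2.46 (SE 1.80) to 0.11 (SE 0.28) and Cd2 from 2.37 (SE 1.72) to 0.14 (SE 0.36). The median over the 10 was then 0.10, against 0.06 over all probes, with 0 called against 3.77%. When LDIR B was left out instead, Cd8b1 (4.04) and Cd3g passed the thresholds, and Cd3g is given no size there since 2 of its 3 sham values were not well above background. Of the 24 receptor signalling genes Ctla4, the inhibitory receptor of activated T cells, passed as at least 2.8-fold higher in LDIR mice (limma adjusted p = 0.972), and of the 9 B genes Pax5 passed as at least 4.6-fold higher. Both are bounds, the mean of the LDIR arrays against the lowest signal that passes as above background, since neither did so on any SPRET/EiJ sham array. Without LDIR A the bounds were 1.5-fold and 1.9-fold, each probe was above background on 1 of the 2 remaining LDIR arrays, and both genes still passed. Of the 5 NK cell genes Klra8, a receptor of the Ly49 family, fell by 1.57 on the log2 scale (SE 0.26, limma adjusted p = 0.972) and was well above background on 2 of the 3 LDIR arrays. Its difference was the same without LDIR A, and in the fit of the 21 other arrays its adjusted p was 0.038.

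**Figure D4:**
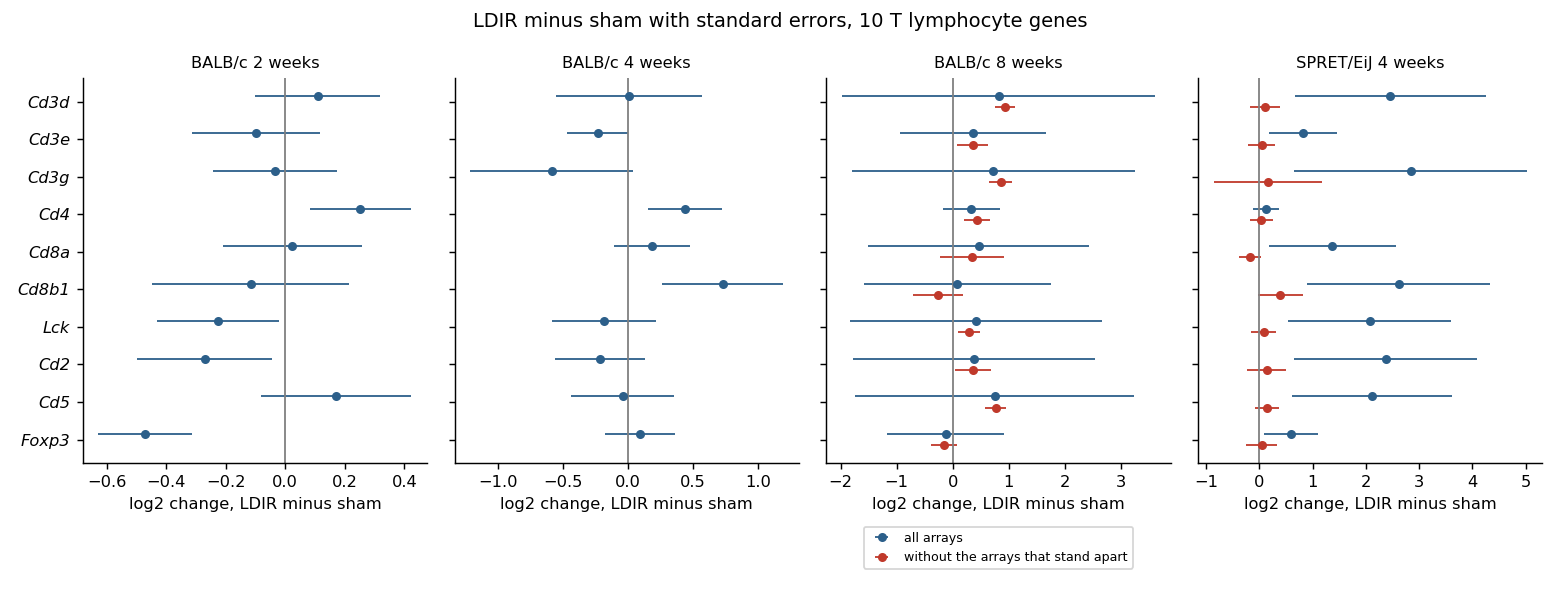
Log2 change, LDIR minus sham, of each T lymphocyte gene with its standard error in 4 comparisons, from all arrays and, where arrays stand apart, without them. At 8 weeks and in SPRET/EiJ the standard errors shrink without the arrays that stand apart, and in SPRET/EiJ the changes move to between -0.18 and 0.39; the axes differ between panels.

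Over the 3 times together, 9 LDIR against 9 sham BALB/c mice, limma called 0 of the 10 genes against 1.16% of all probes, and 0 had an unadjusted p under 0.05 by limma or the t-test. The median change was 0.13, against -0.04 over all probes. Cd4 differed by 0.34 (SE 0.20), and by 0.37 (SE 0.13, limma adjusted p = 0.609) without the pair of arrays that stands apart, in both cases under 1.5-fold. In that smaller set 0 of the 10 were called, against 1.74% of all probes. Whether the LDIR change differed between strains at 4 weeks was tested as an interaction, BALB/c minus SPRET/EiJ. It called 0 of the 10, against 3.59% of all probes, with 0 at an unadjusted p under 0.05 by limma or the t-test. Cd3g, with its probe near the background in SPRET/EiJ mice, was at -3.42 (SE 2.53), and at -0.75 (SE 1.26) without SPRET/EiJ LDIR A. The median of the 10 went from -2.02 to -0.15 when that array was left out, and 0 were called then against 4.56% of all probes.

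The strains were compared in sham mice at 4 weeks, where none of the 3 arrays is involved, at an unadjusted p under 0.001 with a change over 1.5-fold. Limma called 0 of the 10 genes, against 8.89% of all probes, and both limma and the t-test gave 2 genes an unadjusted p under 0.05. These were Cd3g and Cd2. Cd3g was higher in BALB/c by 3.06 (SE 0.75, limma adjusted p = 0.036), but only 1 SPRET/EiJ sham array had this probe well above background. With normexp background correction the difference was 0.99 (SE 0.35, limma adjusted p = 0.0897). Cd2 was at -1.16, 0.07 and -0.88 in BALB/c and at -1.78, -2.68 and -1.70 in SPRET/EiJ, so the groups did not overlap. Its difference was 1.40 (SE 0.41, limma adjusted p = 0.064), and 1.19 (SE 0.25) by its second, coding probe. Cd8b1 was lower in BALB/c by a difference of -1.04 (SE 0.44, limma adjusted p = 0.165), and each BALB/c value, from -4.94 to -3.32, lay below each SPRET/EiJ value, from -3.11 to -2.60. The other 7 genes differed by -0.37 to 0.50.

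In the fit of the 21 other arrays Cd3g and Cd2 passed the strain thresholds as higher in BALB/c, as did 9.16% of all probes. With slide as a block in that fit neither did, with differences of 2.49 (SE 1.60) and 0.40 (SE 0.71). Every SPRET/EiJ array lay on slide 3 and no 4-week BALB/c array did, so within the compared groups strain and slide cannot be told apart, and the block leans on 8-week LDIR C alone. Of the 24 receptor signalling genes, Grap2, an adaptor of the LAT complex, exceeded its SPRET/EiJ level in BALB/c by at least 5.4-fold, a bound of the same kind. S1pr1, the receptor for exit from lymphoid organs, was higher by 1.49 as the single gene called of 16. In LDIR mice limma called 0 of the 10 genes, against 5.67% of all probes, with 0 at an unadjusted p under 0.05 by limma or the t-test. Without SPRET/EiJ LDIR A, Cd2 was higher in BALB/c by 1.05 (SE 0.23, limma adjusted p = 0.032), Cd8a by 0.86 (SE 0.17, adjusted p = 0.024) and Cd3g by 2.31 (SE 0.90, adjusted p = 0.145). The Cd8a and Cd3g probes were each well above background on 1 of the 2 remaining SPRET/EiJ arrays. None of them reached the threshold of 0.001, which 7.9% of all probes did with the fold.

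Time was followed in sham BALB/c mice, and both comparisons share the 4-week sham arrays. From 2 to 4 weeks limma called 0 of the 10 genes, against 3.04% of all probes, with 0 at an unadjusted p under 0.05 by limma or the t-test. The median of the 10 was 0.48, against 0.00 over all probes. Cd5 was at -2.34, -3.25 and -3.03 at 2 weeks and at -2.54, -1.08 and -1.96 at 4 weeks, a difference of 1.01 (SE 0.42, limma adjusted p = 0.984), and 0.62 without 4-week sham B. Cd3g differed by 1.30 (SE 0.64) and Cd3d by 0.95 (SE 0.56), and without 4-week sham B by 0.57 (SE 0.33) and 0.28 (SE 0.20). The second Cd8a probe passed the thresholds, with a difference of 1.12 (SE 0.37, limma adjusted p = 0.984), but it was well above background on 1 of the 3 arrays at 2 weeks, and the brighter probe differed by 0.12. In the fit of the 21 other arrays, which holds 4-week sham B, Cd3d, Cd2 and Cd5 passed upward, as did 2.51% of all probes. Within slide 1, with 4-week sham A and B, the 10 genes differed by -0.20 to 1.47.

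From 4 to 8 weeks limma called 0 of the 10 genes, against 13.7% of all probes, with 0 at an unadjusted p under 0.05 by limma or the t-test. The median of the 10 was 1.43, against 0.07 over all probes, and rested on 8-week sham A. Without that array the median was -0.44, against -0.18 over all probes, and 1 gene, Cd3e, passed downward, against 12.5% of all probes. Cd3e was at 2.14, 2.82 and 2.62 at 4 weeks and at 1.52 and 1.08 on 8-week sham B and C, so these did not overlap. Its difference was -1.23 (SE 0.28, limma adjusted p = 0.092), and -0.13 (SE 0.94) with sham A. Further T cell genes and markers of other cells moved both ways in the same comparison without sham A. Of the receptor signalling genes Nfatc2 passed upward and Themis and Ubash3a downward. Of the transcription and homing genes Bcl11b, Tcf7 and Ccr6 passed upward and Tbx21 downward. Among the cytotoxic genes Gzmb passed upward and Ifng downward. Cd68, Cxcl13, Lyve1 and Ms4a1 also passed upward, and Cd22 and Klra8 downward. The share of all probes that passed upward is not given here. Of the 5 epithelial genes 2 passed upward, the basal keratin genes Krt5 by 2.08 (SE 0.25, limma adjusted p = 0.036) and Krt14 by 1.42 (SE 0.37). Of the 5 adipocyte genes 3 passed downward, Fabp4 at -0.80, Plin1 at -0.65 and Cidec at -0.63. Their part in the Cd3e difference was not tested. In the fit of the 21 other arrays the adjusted p of Cd3e was 0.0057, and with slide as a block its difference was -1.33 with an adjusted p of 0.042. Within slide 2, 8-week sham B and C against 4-week sham C alone, the 10 genes differed by -1.33 to 0.89 and 2 were above 0.

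Among the arrays that do not stand apart, the order of the groups by median was not the same for each gene. Of 70 pairs of neighbours in these orders 62 overlapped, and 8 in 6 genes did not, among them 2-week LDIR and 2-week sham for Foxp3 and SPRET/EiJ sham and 8-week LDIR for Cd3d. The groups held at most 3 arrays, and the Cd3d pair parted only at -2.522 against -2.519. The same share over all probes was not taken, here or for the other groups said above not to overlap. Lck had its lowest group medians at 2 weeks, -0.68 in sham and -0.79 in LDIR mice, and its values there, from -0.85 to -0.17, reached into those of 4-week sham mice. Over the 16 BALB/c arrays of this kind the widest ranges were those of Cd3g, 3.15 log2 units, Cd8b1, 2.79, and Cd3d, 2.54. The top was 4-week sham B for Cd3g and Cd3d and 8-week sham B for Cd8b1, and Cd4 spanned 0.94.

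The genes whose deviations from the group mean were most like the mean of the 10, over 24 arrays and 29337 probes above background on all of them, were Skap1 (Pearson r 0.997), Hcst (0.996), Zap70 and Traf3ip3 (both 0.995), followed by 2 unnamed transcripts, Lat, Ccr7, Dusp2 and Cybasc3 (0.992). These values are carried by the 3 arrays that stand apart. Over the 21 other arrays the highest were 6330509M05Rik (0.916), Adcy9 (0.891), Zmym6 (0.863), Hcst (0.860), Gm7102 (0.860) and Gigyf1 (0.857), with 4 entries that have no gene symbol between them. Hcst was the single gene with a place in both lists.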

How the data were processed

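Total RNA of 24 mammary glands was labelled with Cy3 and hybridised to 1-colour arrays of 60-base probes. The deposited intensity of a spot is, per the file headers, already corrected for background and detrended by the scanner software. The authors' own deposited log2 values, set to the 75th percentile, served as an alternative. Groups came from the sample labels. Here outlier spots (3777) were left out, none (0) was saturated, and log2 intensities of each array were set to a 75th percentile of 0 over 55681 probes. After centring, 99.812% of the authors' log2 values lay within 0.01 of these. Comparisons used limma 3.58.1 in R 4.3.3 on all probes with Benjamini-Hochberg adjustment. The 3 arrays of a group are biological replicates per the study's methods, and their number limits the precision. The procedure was tested on simulated data.

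The members, gene lists and tests were chosen with earlier results of these data known. Named are all 10 members, by the probe with the highest mean, the list genes past the thresholds (at most 6 per list and comparison, by smallest p, of which the text gives some) and the genes most like the members. Of the listed marker genes, Ccl21a and Adgre1 (under Emr1 here) had no probe of that name. An array stood apart where its B lymphocyte mean lay over 3 log2 units above the strain's median, and fits without such arrays were added after seeing the data. The labels give each group the letters A to C. Only at 2 weeks did LDIR and sham arrays with a common letter deviate alike (correlations 0.141, 0.442 and 0.102). The comparisons above do not pair the letters at any time, and a block for replicate was an alternative only. A planned correlation across arrays is not reported here. Tried in turn were the authors' values, quantile normalization, normexp (offset 50), other probe rules, blocks for slide or for replicate, a single fit of every array, and leaving out each array. Promoters and motif shares are from RefSeq GRCm38.p6, and probe positions are the files' (mm9).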

Additional observations from a re-analysis of the deposited data

How the results depend on the processing

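Over the alternatives, 184 counts of called genes were within 1.5 times those above and 20 were not, and of values of single genes 314 kept direction and side of the threshold, 24 gained the call and 33 changed sign. In place of 0 called members, the strain comparison in sham mice gave 2 in the fit of 21 arrays. LDIR at 4 weeks gave 1 (Cd8b1, 0.73) with the replicate block and 0 to 1 with one array left out, by Cd3d without sham B and Cd4 without sham C. LDIR at 8 weeks gave 3 without the arrays that stand apart. SPRET/EiJ LDIR and the interaction each gave 0 to 2 with one array left out, the 2 without SPRET/EiJ LDIR B. From 2 to 4 weeks the count was 1 with normexp, 1 with detected probes only, 2 with the median over probes, 3 in the fit of 21 arrays, 3 with slide as a block in it, and 0 to 3 with one array left out (1 without 2-week sham A, 3 without 4-week sham A). From 4 to 8 weeks it was 1 with detected probes only, 1 without the arrays that stand apart, 4 in the fit of 21 arrays, 3 with slide as a block in it, and 0 to 1 with one array left out (1 without 8-week sham A or C). In this last comparison 13.7% of all probes were called with all arrays, and the share in the fit of 21 arrays is not given. The share over all probes stands beside the counts of this paragraph only where given above, so they are descriptions. No other fit with the replicate block changed a member call, and the labels do not say that the letters are pairs.

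Signs changed as follows, and the cause was not tested. With slide as a block over 24 arrays, the values were 1.28 for Cd8b1 between strains in sham mice, 2.63 for Cd3g and 1.03 for Cd2 between strains in LDIR mice, -1.56, -1.27 and -1.29 for Cd3d, Cd3g and Cd5 at 8 weeks, and -0.0026 for Cd4 over 3 times. Those at 8 weeks are the differences of LDIR A from the mean of sham A to C within slide 2, given above. Between strains in LDIR mice Cd3g was 2.31 and Cd2 1.05 without the arrays that stand apart and in the fit of 21 arrays, 2.08 and 0.28 with slide as a block in it, and -2.48 to 2.31 and -2.36 to 1.05 with one array left out. Cd3d at 4 weeks was -0.053 with normexp, -0.048 with quantile normalization and -0.35 to 0.68 with one array left out. At 8 weeks the ranges with one array left out were -1.53 to 3.28 (Cd3d), -1.39 to 2.97 (Cd3g) and -1.38 to 2.91 (Cd5), and for Cd3e from 4 to 8 weeks -1.23 to 0.54.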
